A study of Mus musculus with 9 samples.

Results

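The mouse genes described here encode ion channels known from sperm. The 4 pore-forming subunits of the CatSper calcium channel are Catsper1, Catsper2, Catsper3 and Catsper4. A further 4 genes encode its auxiliary subunits (Catsperb, Catsperd, Catsperg1 and Catsperg2). The others are the sperm potassium channel gene Kcnu1 and the proton channel gene Hvcn1. These 10 genes were chosen by gene symbol, and all were found among the 55471 genes of the deposited table, of which 49216 had counts. All 10 also passed the filter on low counts that left 18234 genes for testing. RNA came from germ cells at the pachytene and diplotene stages of meiosis, taken from C57Bl mice that carry tdTomato under a germ-cell-specific promoter, sorted and kept in culture. Group 1 received 24 mM oxamate, an inhibitor of lactate dehydrogenase, together with 0.3 mM octyl-L2HG, an esterified form of L-2-hydroxyglutarate that enters cells. Group 2 received 24 mM oxamate alone, and group 3 was untreated. Treatment lasted 48 h, and no culture time was given for untreated cells, so treatment and time in culture cannot be told apart wherever untreated cells are the baseline. No group received octyl-L2HG without oxamate or another octyl ester. Each group had 3 libraries, lettered A, B and C. Whether the 3 are separate cultures or animals is not stated in the labels, so the spread that p-values measure here is that between libraries and could be technical.

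CatSper is a calcium channel that opens at alkaline pH in the membrane of the principal piece of the flagellum. Its pore is built from CATSPER1 to CATSPER4, all of which are needed for a working channel in mice, and the auxiliary subunits form a canopy over it outside the cell. The current drives hyperactivated motility, and male mice that lack a pore subunit are infertile. KCNU1, also called SLO3, carries the alkalinisation-activated potassium current that hyperpolarises mouse sperm during capacitation. HVCN1 lets protons out of cells and is best known as a route of sperm alkalinisation in humans. In the testis several of these transcripts are first made in spermatocytes, while others appear mainly in spermatids after meiosis.

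Library totals ranged from 24849620 to 46671048 counts. Summed markers of pachytene and diplotene spermatocytes stood between 8785 and 10320 CPM, counts scaled to a common library size, in all 9 libraries. Markers of somatic testis cells were low: 8 Sertoli cell genes summed to at most 1.91 CPM, with Gata4 at 0 in every library, and 6 Leydig cell genes to at most 3.96 CPM. Genes of peritubular and blood cells summed to at most 10.8 CPM, with the globin genes Hbb-bs and Hba-a1 at 0. Markers of spermatids were present: round spermatid genes summed to at most 1046 CPM and elongating spermatid genes to at most 1119 CPM. Spermatogonium genes summed to at most 67.1 CPM, most of it from Id4, whose group means ran between 42.15 and 54.93 CPM. The other spermatogonium genes were low, with Gfra1 the highest of them at group means of at most 4.35 CPM. Library C with octyl-L2HG plus oxamate stood apart from libraries A and B of its group, at 33.7 on the first principal component of all tested genes against 62.3 and 66.2. It lay toward the oxamate libraries, which ran between -26.1 and -12.5. The untreated libraries ran between -41.3 and -31.9.

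The sequence upstream of the start of transcription was available from RefSeq (GRCm38.p6) for 6 of the 10 genes: Catsper2, Catsper3, Catsper4, Catsperb, Catsperd and Catsperg1. Of these, 5 are printed below, each as the 250 bases before the RefSeq start on the strand of the gene, because they set 2 genes that fell with octyl-L2HG (Catsper3, Catsper4) beside 3 that did not pass the test. Capitals mark AACNG, the core recognised by MYB factors, TGACG, a half-site of the cAMP response element, and the X-box core of Catsperg1, each on either strand.
Catsper3: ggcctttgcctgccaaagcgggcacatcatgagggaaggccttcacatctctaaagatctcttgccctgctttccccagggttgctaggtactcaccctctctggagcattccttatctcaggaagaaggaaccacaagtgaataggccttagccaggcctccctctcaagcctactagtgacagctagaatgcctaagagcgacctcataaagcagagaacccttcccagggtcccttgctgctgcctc
Catsper4: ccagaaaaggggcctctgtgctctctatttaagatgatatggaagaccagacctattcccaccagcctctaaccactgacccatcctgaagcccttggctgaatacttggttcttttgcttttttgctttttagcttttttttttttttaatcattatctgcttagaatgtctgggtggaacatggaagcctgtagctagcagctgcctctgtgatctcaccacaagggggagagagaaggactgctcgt
Catsper2: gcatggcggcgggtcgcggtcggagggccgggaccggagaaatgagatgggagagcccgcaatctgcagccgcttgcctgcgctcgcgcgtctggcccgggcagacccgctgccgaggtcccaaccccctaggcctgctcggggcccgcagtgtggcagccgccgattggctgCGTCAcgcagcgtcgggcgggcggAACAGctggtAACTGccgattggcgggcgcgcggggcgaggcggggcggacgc
Catsperb: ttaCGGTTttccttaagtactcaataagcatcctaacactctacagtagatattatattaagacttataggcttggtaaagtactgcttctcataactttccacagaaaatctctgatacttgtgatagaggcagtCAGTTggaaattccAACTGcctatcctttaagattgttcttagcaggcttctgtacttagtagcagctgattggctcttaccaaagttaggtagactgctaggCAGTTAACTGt
Catsperg1: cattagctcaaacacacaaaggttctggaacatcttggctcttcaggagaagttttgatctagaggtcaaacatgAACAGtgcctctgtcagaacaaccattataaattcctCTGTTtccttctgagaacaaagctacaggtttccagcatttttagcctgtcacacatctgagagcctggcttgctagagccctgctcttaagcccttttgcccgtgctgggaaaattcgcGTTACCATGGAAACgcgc

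Catsper3 lies on the forward strand at chr13:55784329-55784578, Catsper4 on the reverse strand at chr4:134227384-134227633, Catsper2 on the reverse strand at chr2:121413793-121414042, Catsperb on the forward strand at chr12:101404423-101404672 and Catsperg1 on the reverse strand at chr7:29214034-29214283. Base composition differed between them. Catsper2 had 74.8% G and C with 35 CG dinucleotides, whereas Catsper3 had 54.0% and 2, Catsper4 45.2% and 1, Catsperb 38.0% and 1, and Catsperg1 46.0% and 5. Catsper2 shares 18 exon bases with Pdia3 on the opposite strand. Its window may therefore also hold sequence of Pdia3, which was not examined, so its composition and motif matches need not belong to Catsper2 alone. Catsperd, not printed, had 52.8% and 11. The median over 32851 promoters of the same length was 52.4% with 6 CG dinucleotides.

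AACNG, the site of A-MYB, the MYB factor of spermatocytes, occurred 5 times before Catsperb and 2 times each before Catsper2, Catsperd and Catsperg1. It had no match before Catsper3 or Catsper4. Since 74.2% of all promoters hold this short motif, these matches are a description of the letters and not of binding. A pair of the Catsperb matches adjoin on opposite strands, without a base between them, at 11 and 6 bases before the start. TGACG occurred once, 77 bases before Catsper2 on the opposite strand, against 17.8% of all promoters. The full element TGACGTCA, held by 1.55% of promoters, had no match in the 6 windows. ACAAT, the core of SOX factors, occurred once, before Catsperb, and in 27.7% of all promoters. GTTNCCATG, the first letters of the X-box read by RFX factors, was searched after the Catsperg1 sequence had been seen; Catsperg1 holds it on both strands, overlapping, at 18 and 13 bases before the start, as do 1.56% of all promoters on at least one strand.

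In untreated cells the genes spanned a wide range of levels, compared here as mean CPM per kb of the longest protein-coding transcript. Catsper2 stood at the top with 244 CPM per kb. Catsperd followed with 101, Catsperb with 64.5, Catsperg2 with 55.9 and Catsperg1 with 53.9 CPM per kb. The other pore subunits were far lower: Catsper1 had 19.4, Catsper3 10.9 and Catsper4 10.8 CPM per kb, and Kcnu1 had 11.1. Hvcn1 was last with 0.202 CPM per kb. Neighbours whose libraries overlapped were Catsperb and Catsperg2, Catsperg2 and Catsperg1, Kcnu1 and Catsper3, and Catsper3 and Catsper4. The 4 pore subunits, which share one channel, were therefore not at one transcript level: Catsper1, Catsper3 and Catsper4 together made up 17.1%, 12.9% and 13.5% of their sum per kb in untreated libraries A, B and C.

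With octyl-L2HG plus oxamate, 4 of the 10 genes fell below oxamate alone and none rose. Those that fell were 3 pore subunits, Catsper1 by 3.76-fold, Catsper3 by 3.74-fold and Catsper4 by 2.29-fold, and Kcnu1 by 1.67-fold. The most abundant pore subunit, Catsper2, and all 4 auxiliary subunit genes did not pass the test, nor did Hvcn1. Tests are limma-voom over all 18234 genes with Benjamini-Hochberg adjustment and a threshold of 0.05. In this comparison 15.4% of all genes fell and 4.11% rose, and the median log2 fold change of all genes was 0.07.

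Catsper1 (ENSMUSG00000038498, chromosome 19, 5335741 to 5344280, forward strand, GRCm38) encodes the pore subunit with a histidine-rich N-terminus. It had 8.58, 11.4 and 24.6 CPM in libraries A, B and C with octyl-L2HG plus oxamate, against 48.2, 48.6 and 54.2 CPM with oxamate alone. Every library with octyl-L2HG lay below every oxamate library, and library C was the highest of its group. The log2 fold change was -1.91 ± 0.27 (SE, n = 3 each; limma-voom, Benjamini-Hochberg adjusted p = 0.00035), with a 95% interval between -2.49 and -1.32. Fewer cells that make this transcript and less of it per cell cannot be told apart in such bulk libraries, here and in all results below. In untreated cells Catsper1 had 44.1, 42.6 and 40.6 CPM, also above every library with octyl-L2HG, with a log2 fold change of octyl-L2HG plus oxamate over untreated of -1.66 ± 0.27 (SE; limma-voom adjusted p = 0.00054).

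Catsper3 (ENSMUSG00000021499, chromosome 13, 55784568 to 55808998, forward strand) was the lowest of the pore subunits in CPM. Its 3 libraries with octyl-L2HG plus oxamate had 2.71, 1.98 and 5.17 CPM, against 13.8, 9.996 and 11.5 CPM with oxamate and 17.95, 13.2 and 12.2 CPM in untreated cells. Every library with octyl-L2HG lay below every other library, with library C again the highest of its group, while oxamate and untreated libraries overlapped. The log2 fold change was -1.90 ± 0.28 over oxamate (SE; limma-voom adjusted p = 0.00053) and -2.20 ± 0.28 over untreated (adjusted p = 0.00011). Against untreated cells this 4.59-fold fall was the largest among the 10 genes.

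Catsper4 (ENSMUSG00000048003, chromosome 4, 134211970 to 134227383, reverse strand) encodes a further pore subunit. Libraries with octyl-L2HG plus oxamate had 7.504, 6.03 and 13.8 CPM, against 23.6, 19.3 and 17.6 CPM with oxamate and 20.6, 17.5 and 17.96 CPM in untreated cells. Here too the lowest oxamate or untreated library lay above the highest library with octyl-L2HG. The log2 fold change was -1.19 ± 0.23 over oxamate (SE; limma-voom adjusted p = 0.0034) and -1.10 ± 0.24 over untreated (adjusted p = 0.0034).

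Kcnu1 (ENSMUSG00000031576, chromosome 8, 25849623 to 25937939, forward strand), the pore of the sperm potassium channel, also fell. It had 20.8, 25.6 and 29.8 CPM with octyl-L2HG plus oxamate, against 43.7, 43.5 and 38.5 CPM with oxamate and 42.0, 39.6 and 36.0 CPM in untreated cells. Libraries with octyl-L2HG did not overlap with those of either other group, which overlapped with each other. The log2 fold change was -0.74 ± 0.13 over oxamate (SE; limma-voom adjusted p = 0.0017) and -0.65 ± 0.13 over untreated (adjusted p = 0.0024). The interval against oxamate ran between -1.03 and -0.46, and whether Kcnu1 fell less than the pore subunits of CatSper was not tested.

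**Figure D1:**
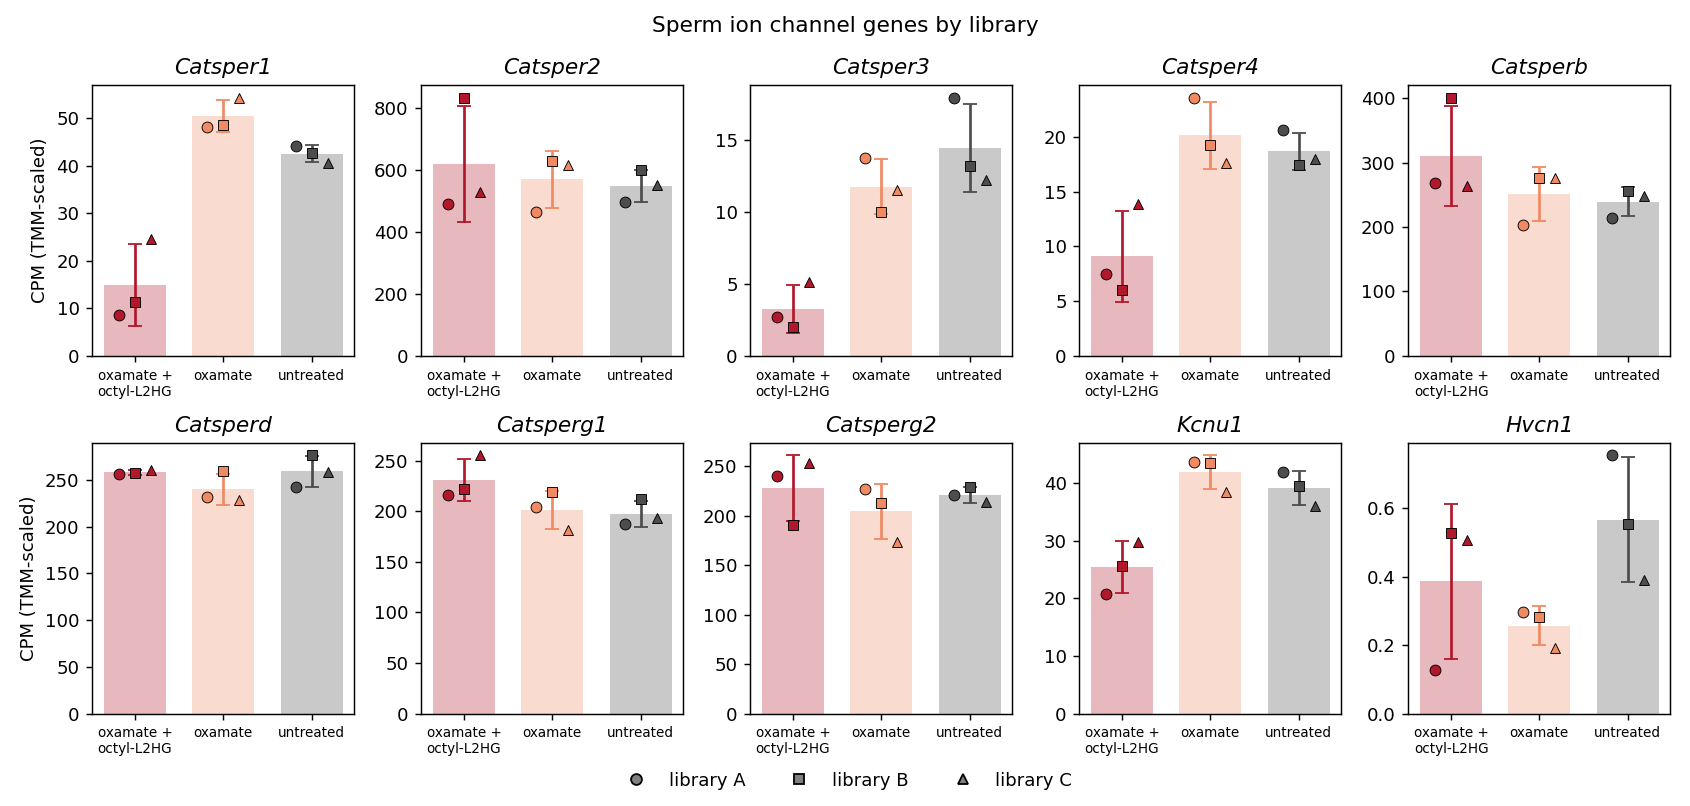
Level of each of the 10 genes in CPM (linear axis) in the 3 libraries of each group, with bars at the mean and error bars of 1 SD (n = 3). Catsper1, Catsper3, Catsper4 and Kcnu1 lie lower in every library with octyl-L2HG plus oxamate than in any other library, while Catsperb and Catsperg1 lie above the untreated libraries there and overlap with oxamate.

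Catsper2 (ENSMUSG00000033486, chromosome 2, 121392631 to 121413792, reverse strand) did not pass the test in any comparison, unlike the other pore subunits. It had 490, 832 and 529 CPM with octyl-L2HG plus oxamate, against 464, 627 and 615 CPM with oxamate and 496, 599 and 551 CPM in untreated cells. The groups overlapped, and library B was the highest in each. The log2 fold change over oxamate was 0.08 (95% interval -0.31 to 0.47; limma-voom adjusted p = 0.81), so the interval reaches neither a fall nor a rise of the size seen for Catsper1. Over untreated cells it was 0.12 (-0.27 to 0.52; adjusted p = 0.62). Catsper2 shares 18 exon bases with Pdia3 on the opposite strand, and the strand setting of the read counting is not stated.

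None of the auxiliary subunit genes passed the test. Catsperb, for a part of the canopy (ENSMUSG00000047014, chromosome 12, 101404653 to 101626009, forward strand) had 269, 401 and 264 CPM with octyl-L2HG plus oxamate, against 202, 276 and 276 CPM with oxamate and 214, 257 and 248 CPM in untreated cells. Library B was far above A and C in the octyl-L2HG group, as for Catsper2. The log2 fold change was 0.28 over oxamate (95% interval -0.08 to 0.65; limma-voom adjusted p = 0.27) and 0.34 over untreated (-0.02 to 0.71; adjusted p = 0.12). In the authors' deposited table, made with DESeq2, octyl-L2HG plus oxamate over untreated was 0.36 for Catsperb with an adjusted p of 0.0295, which passed 0.05.

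Catsperd (ENSMUSG00000040828, chromosome 17, 56628143 to 56664456, forward strand), needed in mice for the channel to be assembled, was the steadiest of the 10. It had 256, 258 and 261 CPM with octyl-L2HG plus oxamate, against 232, 259 and 229 CPM with oxamate and 242, 276 and 259 CPM in untreated cells. Its interval over oxamate ran between -0.06 and 0.28 on the log2 scale (limma-voom adjusted p = 0.39), and over untreated between -0.17 and 0.17 (adjusted p = 0.99).

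Catsperg1 (ENSMUSG00000049676, chromosome 7, 29181321 to 29214035) and Catsperg2 (ENSMUSG00000049123, chromosome 7, 29697219 to 29727032), both on the reverse strand, are near-identical copies of the gamma subunit gene. Their transcripts were 96.5% identical over 3658 aligned bases and shared 41.0% of 50-base windows, so how reads were split between them is uncertain. Catsperg1 had 216, 222 and 255 CPM with octyl-L2HG plus oxamate, against 205, 219 and 182 CPM with oxamate and 187, 212 and 194 CPM in untreated cells. Catsperg2 had 240.0, 191 and 254 CPM with octyl-L2HG plus oxamate, against 228, 213 and 174 CPM with oxamate and 221, 229 and 214 CPM in untreated cells. The groups overlapped in all of these comparisons except Catsperg1 against untreated cells. With the counts of both copies summed, the log2 fold change was 0.18 over oxamate (limma-voom adjusted p = 0.24) and 0.13 over untreated (adjusted p = 0.31).

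Hvcn1 (ENSMUSG00000064267, chromosome 5, 122206804 to 122242297, forward strand) was barely detected. Its raw counts were 6, 12 and 20 with octyl-L2HG plus oxamate, against 11, 8 and 7 with oxamate and 33, 15 and 13 in untreated cells. At this depth its interval over oxamate, between -1.01 and 1.43 on the log2 scale, spans changes of either sign (limma-voom adjusted p = 0.84). In addition 44.2% of its exon bases overlap those of Tctn1 on the opposite strand, and without strand the reads of both genes cannot be told apart.

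Against untreated cells the same test also called 4 of the 10 genes lower with octyl-L2HG plus oxamate and none higher; these were again Catsper1, Catsper3, Catsper4 and Kcnu1. Over all genes 21.1% fell and 17.2% rose in this comparison, whose libraries with octyl-L2HG are the ones compared with oxamate above. By non-overlap of the libraries alone, 6 of the 10 genes separated from untreated cells, the same 4 downward and Catsperb and Catsperg1 upward, against 51.3% of all genes. Over oxamate 4 of the 10 did so, all downward, against 33.1% of all genes.

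None of the 10 genes passed the test for oxamate alone. Limma-voom called 0 of them against untreated cells, where 5.74% of all genes rose and 3.84% fell; at an unadjusted p of 0.05 the count was also 0, and in the authors' deposited table, made with DESeq2, 0 had an adjusted p below that threshold. The intervals of the log2 fold changes were narrowest for Catsperd (-0.28 to 0.06) and Catsperg1 (-0.18 to 0.24). They were wider for the auxiliary subunits Catsperb (-0.304 to 0.425) and Catsperg2 (-0.385 to 0.144). For Catsper1 (-0.27 to 0.76) and Catsper3 (-0.81 to 0.21) they were wider still. For Catsper2, Catsper4, Catsperb, Catsperg2 and Kcnu1 the log2 fold changes lay between -0.12 and 0.10. Hvcn1 had the lowest value, -1.11 (-2.25 to 0.03; limma-voom adjusted p = 0.20), with all 3 oxamate libraries below the untreated ones. Catsper1 was the other gene whose libraries did not overlap, with oxamate higher, while 34.0% of all genes were separated in this way. The letters of the libraries were taken to mark possible pairs in this comparison. The limma-voom values above do not use this pairing, and blocking by letter also called 0 of the 10.

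**Figure D2:**
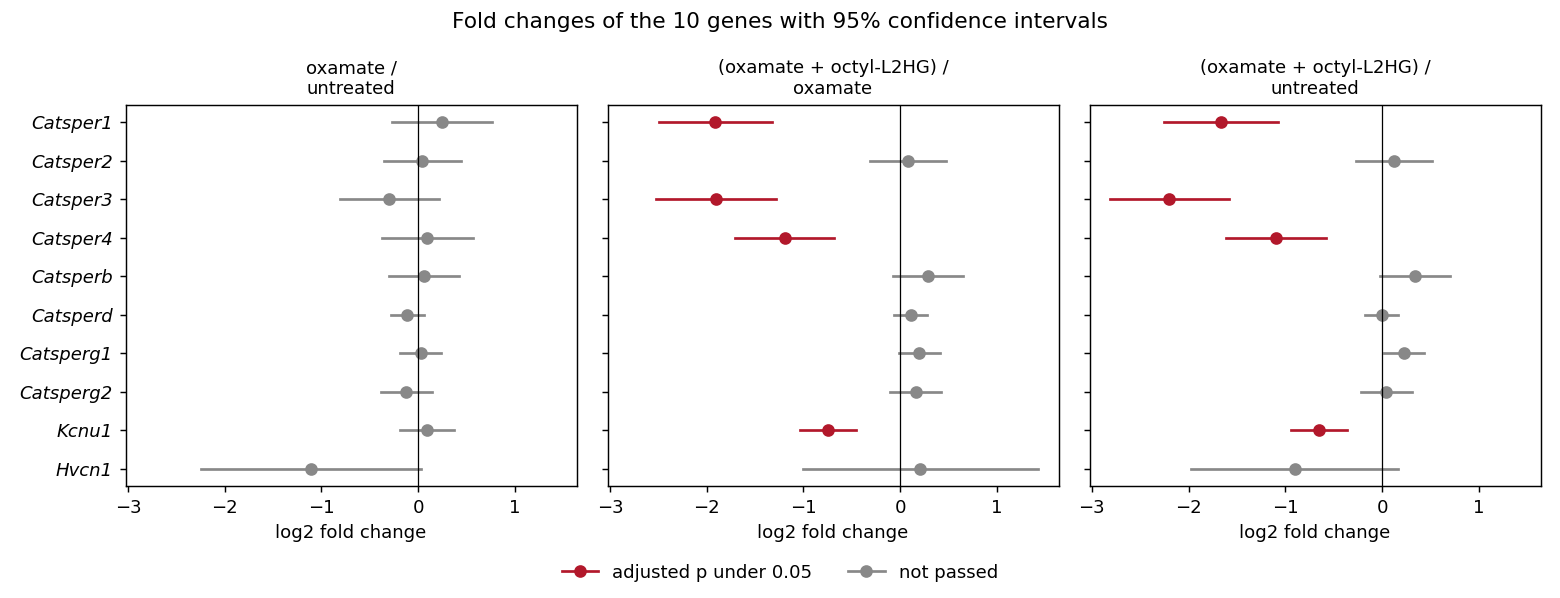
Log2 fold changes of the 10 genes in the 3 comparisons, with 95% confidence intervals from the limma-voom fit over 18234 genes; red marks an adjusted p under 0.05. Catsper1, Catsper3, Catsper4 and Kcnu1 lie left of 0 in both comparisons with octyl-L2HG plus oxamate, and none of the 10 is marked for oxamate over untreated.

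The make-up of the pore subunits with octyl-L2HG plus oxamate differed from that of the other groups, which restates the falls given above. Summed per kb, Catsper1, Catsper3 and Catsper4 came to 10.3, 10.2 and 23.2 CPM per kb in libraries A, B and C with octyl-L2HG plus oxamate, against 46.1, 40.9 and 43.7 with oxamate and 45.6, 39.5 and 38.2 in untreated cells. Their share of all 4 pore subunits was 4.51%, 2.67% and 8.96% with octyl-L2HG plus oxamate. It was 18.2%, 12.8% and 13.8% with oxamate, and 17.1%, 12.9% and 13.5% in untreated cells. The 4 auxiliary genes together had 292, 317 and 307 CPM per kb with octyl-L2HG plus oxamate, against 259, 289 and 257 with oxamate and 259, 293 and 275 in untreated cells. These sums were formed after the values had been seen and carry no test. In order of level per kb, Catsper1 stood just below Kcnu1 with octyl-L2HG plus oxamate, at 6.79 and 7.18 CPM per kb with overlapping libraries, but above it with oxamate (23.0 and 11.8 CPM per kb) and in untreated cells.

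Markers of later germ cells moved in the same libraries. All 12 round spermatid markers and all 12 elongating spermatid markers fell with octyl-L2HG plus oxamate over oxamate, with median log2 fold changes of -1.49 and -2.61. Summed round spermatid markers came to 341, 347 and 477 CPM with octyl-L2HG plus oxamate, against 945, 785 and 819 CPM with oxamate and 1046, 904 and 909 CPM in untreated cells. Elongating spermatid markers summed to 112, 122 and 295 CPM with octyl-L2HG plus oxamate, against 871, 743 and 948 CPM with oxamate and 1119, 967 and 1106 CPM in untreated cells. Library C was the highest of its group for both, as it was for Catsper1, Catsper3, Catsper4 and Kcnu1. None of these markers was at 0 in a whole group. Of 12 spermatocyte markers, 2 rose and none fell over oxamate, with a median of 0.17. Of all genes 15.4% fell and 4.11% rose in that comparison. Over untreated cells 3 of these 12 were higher and 3 lower with octyl-L2HG plus oxamate, beside 17.2% and 21.1% of all genes. For oxamate over untreated 0 were higher and 2 lower, beside 5.74% and 3.84%. The part that spermatid transcripts had in the falls of the 4 channel genes was not tested.

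**Figure D3:**
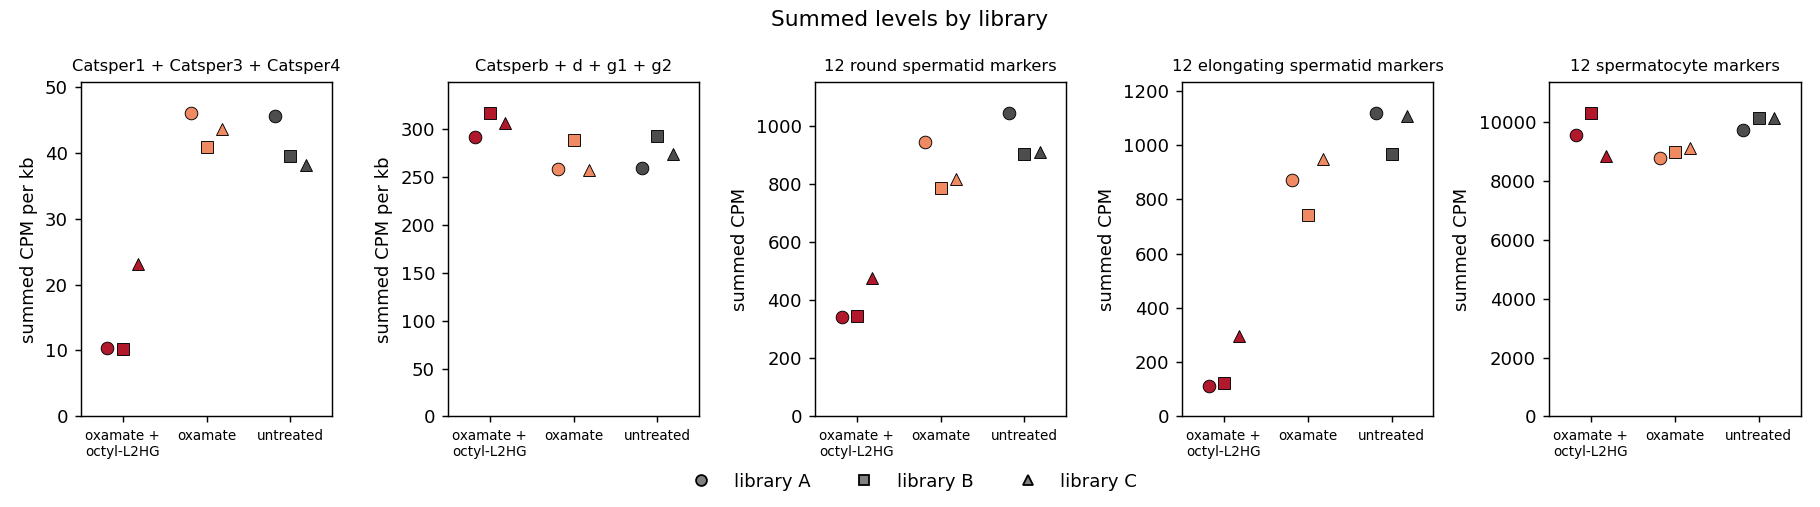
Summed levels by library of Catsper1, Catsper3 and Catsper4, of the 4 auxiliary subunit genes (both in CPM per kb), and of 12 round spermatid, 12 elongating spermatid and 12 spermatocyte markers (CPM), on linear axes; each point is 1 library. In the spermatid panels and that of the pore subunits the libraries with octyl-L2HG plus oxamate are lowest, with library C between libraries A and B and the other groups.

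Partners of the CatSper channel moved in both directions. Of 10 genes for accessory subunits and partners, 3 fell and 2 rose with octyl-L2HG plus oxamate over oxamate, beside 15.4% and 4.11% of all genes, and their median log2 fold change was -0.02 beside 0.07 over all genes. Efcab9, a calcium-binding protein that senses pH and calcium for the channel together with CATSPERZ, had 10.5, 13.02 and 18.7 CPM with octyl-L2HG plus oxamate, against 35.7, 34.1 and 40.1 CPM with oxamate (log2 fold change -1.43; limma-voom adjusted p = 0.00013). Tmem262 and Tmem249, which encode membrane proteins found in the purified mouse channel complex, had log2 fold changes of -1.70 (adjusted p = 0.0013) and -1.07 (adjusted p = 0.0083). Tmem262 was low throughout, with at most 1.12 CPM with octyl-L2HG plus oxamate and at least 1.95 CPM with oxamate.

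The genes that rose were the copies of the epsilon subunit gene. Catspere1 had 268, 272 and 244 CPM with octyl-L2HG plus oxamate, against 168, 206 and 189 CPM with oxamate (log2 fold change 0.48; limma-voom adjusted p = 0.0029), and Catspere2 had 206, 216 and 179 CPM, against 122, 154 and 140 CPM (0.53; adjusted p = 0.0038). The groups did not overlap for either gene. The transcripts compared, of 2949 bases for Catspere1 and 1663 bases for Catspere2, were 69.9% identical over 1490 aligned bases. Of all 50-base windows of the Catspere1 transcript 3.5% were shared. Because the Catspere2 transcript is shorter, many of these windows had no counterpart. The share is therefore not comparable with that of the gamma subunit copies, and how reads were split between Catspere1 and Catspere2 was not examined. The GENCODE annotation (M21) lists Catspere1 as an unprocessed pseudogene. Catsperz, the partner of EFCAB9, did not follow it, with 156, 202 and 139 CPM with octyl-L2HG plus oxamate against 154, 167 and 166 CPM with oxamate (0.00; adjusted p = 0.99). C2cd6, needed in mice for the channel to reach the flagellum, and the transporter gene Slco6c1 of the same complex also did not pass (0.12 and 0.17).

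Over untreated cells 4 of these 10 genes were lower and 2 higher, beside 21.1% and 17.2% of all genes, with a median of -0.16 beside 0.01 over all genes. The same 3 genes were among the lower ones, joined by Dnajb3 at -0.25 (limma-voom adjusted p = 0.0098). Oxamate alone called 0 of the 10 against untreated cells, and 1 with the letter as a block, a setting that also called more of all genes.

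Genes for the transport of potassium, protons and calcium gave 6 falls and 0 rises among 19 tested of 24, with octyl-L2HG plus oxamate over oxamate, at a median of -0.08; of all genes 15.4% fell and 4.11% rose. Lrrc52, the auxiliary subunit that shifts the gating of the KCNU1 channel in mouse sperm, also fell. It had 1.177, 1.01 and 3.63 CPM with octyl-L2HG plus oxamate, against 10.4, 8.54 and 8.66 CPM with oxamate (log2 fold change -2.43; limma-voom adjusted p = 0.00029). A difference between the falls of Lrrc52 and Kcnu1 was not tested. Atp1a4, the sodium pump subunit specific to the male germ line, had the lowest value of the list at -2.82 (adjusted p = 0.00014), with 10.3, 9.24 and 33.5 CPM with octyl-L2HG plus oxamate against 120, 92.5 and 108 CPM with oxamate.

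The intracellular calcium release channel gene Itpr1 fell by 1.70 on the log2 scale (limma-voom adjusted p = 0.00013) and the pump subunit gene Atp1b3 by 0.40 (adjusted p = 0.0053). The ATP-gated channel gene P2rx2 was at most 0.127 CPM with octyl-L2HG plus oxamate and at least 0.248 CPM with oxamate, with a log2 fold change of -2.00 (adjusted p = 0.030). Slc9c1, the sperm sodium-proton exchanger, had 0.19 (adjusted p = 0.30) and did not pass. Over untreated cells 6 genes of this list were lower and 1 higher at a median of -0.07, and with 21.1% of all genes lower and 17.2% higher the number called is near the background. The 5 with the smallest p there were Atp1a4 (-3.11), Itpr1 (-1.74), Lrrc52 (-2.66), Atp1b3 (-0.40) and the sodium-proton exchanger gene Slc9a8 (-0.64).

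For oxamate over untreated 1 gene of this list rose and 1 fell, at a median of 0.00, which is near the background of 5.74% and 3.84% of all genes and no result about the list. With the letter as a block 5 passed, but that setting also called more of all genes, so these shares are not its background. Cftr, the anion channel gene, had 33.9, 42.1 and 37.5 CPM with oxamate, against 28.5, 29.1 and 27.9 CPM in untreated cells (log2 fold change 0.40; limma-voom adjusted p = 0.037). Slc9a8 had 69.3, 58.9 and 52.6 CPM with oxamate, against 92.2, 90.1 and 86.2 CPM in untreated cells (-0.58; adjusted p = 0.027). With one library left out at a time the list gave between 0 and 2 calls. Without untreated library C fewer of all genes passed as well.

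In the list of cAMP and calcium signalling of the flagellum, the pathway that is set off by and acts beside CatSper during capacitation, 8 of 20 genes fell with octyl-L2HG plus oxamate over oxamate and 0 rose, at a median of -0.03, beside 15.4% and 4.11% of all genes. The 5 with the smallest p were Akap4, Akap3, Prkar2a, Camk4 and Cabyr. Akap4 and Akap3, scaffolds of the fibrous sheath, had log2 fold changes of -2.47 and -1.90 (limma-voom adjusted p = 0.000105 for both). Prkar2a, a regulatory subunit of protein kinase A, had -2.40 (adjusted p = 0.00012), Camk4, a calmodulin-dependent kinase, -2.61 (adjusted p = 0.00013) and Cabyr, a calcium-binding sheath protein, -1.86 (adjusted p = 0.00013). Akap4 stood at 28.6, 27.3 and 71.0 CPM with octyl-L2HG plus oxamate, against 244, 186 and 215 CPM with oxamate, with library C again the highest of its group. Adcy10, the bicarbonate-sensitive adenylyl cyclase upstream of protein kinase A, had -0.20 (adjusted p = 0.30), and Prkaca, the catalytic subunit of that kinase, 0.02 (adjusted p = 0.92).

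Over untreated cells 8 genes of this list were lower and 2 higher at a median of -0.27, beside 21.1% and 17.2% of all genes. The 5 with the smallest p were Akap4 (-2.79), Akap3 (-2.09), Prkar2a (-2.60), Camk4 (-2.68) and Ropn1 (-2.60), a sheath protein. For oxamate over untreated 1 rose and 3 fell, at a median of -0.08, beside 5.74% and 3.84% of all genes. Abhd2, the progesterone-sensitive lipase that relieves CatSper inhibition in human sperm, had 117, 116 and 108 CPM with oxamate, against 86.6, 92.0 and 85.5 CPM in untreated cells (log2 fold change 0.37; limma-voom adjusted p = 0.016). Among the falls were those of Ropn1l, a flagellar relative of Ropn1 (-0.36; limma-voom adjusted p = 0.0094), and Ppp3r2, the testis subunit of calcineurin (-0.30; adjusted p = 0.037). With one library left out at a time this list gave between 0 and 3 calls.

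**Figure D4:**
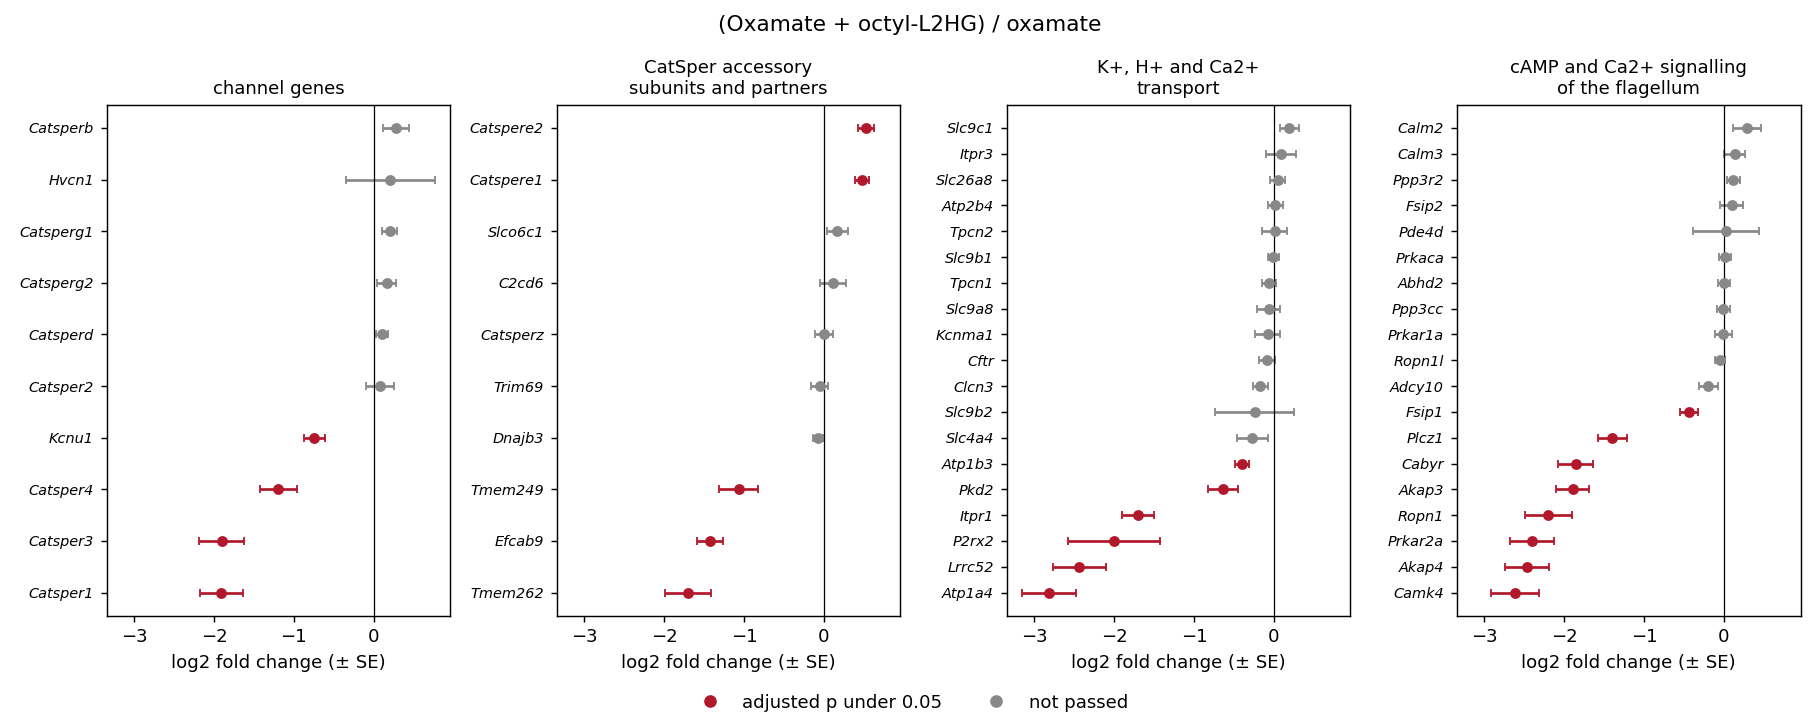
Log2 fold changes with SE for octyl-L2HG plus oxamate over oxamate, for the 10 channel genes and tested genes of the 3 lists; red marks an adjusted p under 0.05 (limma-voom over 18234 genes). The marked genes left of 0 run between -0.40 (Atp1b3) and -2.82 (Atp1a4), and Catspere1 and Catspere2 are the genes marked right of 0.

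Likeness to the channel genes was measured as Pearson's r over the 9 libraries between the log2 CPM of each gene and the mean of the standardised log2 CPM of the 10 genes. Ranked were genes with a mean of at least 2 CPM in the highest group. The 10 genes themselves and unnamed gene models, such as those with Gm or Rik symbols, were left out. Among the nearest were Kcnc1 (0.93), Dync1h1 (0.92), Dnah6 (0.92), Slc6a16 (0.92), Gk5 (0.90), Tshz3 (0.86), Greb1 (0.86), Fndc7 (0.86) and Lrrc43 (0.86). These values rest on 3 groups of libraries that share their treatment and scaling. The mean profile describes the set poorly, since the 10 genes correlate with it at only -0.16 (Catsperb) to 0.66 (Hvcn1).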

How the data were processed

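Per the labels' protocols, a Qiagen mini kit gave the RNA of the sorted cells, and poly-A selected libraries came from the stranded KAPA mRNA kit. Tools named by the submitters' processing notes are DESeq2 1.22.2, HTSeq 0.6.0, TopHat2 2.1.1, cutadapt 1.18 and bcl2fastq 2.18.0.12, on GRCm38, without settings; the strand setting of the counting is not given here. Per the file headers, the authors deposited a raw count of reads for each gene and library, and log2 fold changes with adjusted p-values of their own comparisons, which are used only where named. The raw values were whole in all 442944 cases. In 6255 genes every raw column holds a question mark, and these genes were dropped. Because of such cells the counts were recorded as another unit, and limma-voom was used rather than a count model.

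A gene was tested if 3 or more libraries reached 0.288 CPM (10 counts in the median library) and its total was 15 or more. Scaling used trimmed means of M values, with 30% of log ratios and 5% of log levels trimmed, in R 4.3.3. The fit was limma 3.58.1 (voom with robust empirical Bayes; log2 CPM, offset 0.5) over the 9 libraries together, with 1 mean for each group. Benjamini-Hochberg adjustment ran over 18234 genes at a threshold of 0.05. CPM carry the same scaling, and CPM per kb divides by the longest protein-coding transcript in GENCODE M21. The scripts were tested on simulated data. For Hvcn1 counting error is large; the other 9 genes have many more counts.

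The 10 genes, the gene and marker lists and the tests were chosen with earlier results of these data known. All 10 genes are named whatever their test. From the 3 lists, genes that passed are named, or the 5 with the smallest p where more passed; Catsperz, C2cd6, Slco6c1, Slc9c1, Adcy10 and Prkaca were added after their values were seen. A few genes that this rule or the measure of likeness takes are not reported here.

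The labels leave the meaning of the letters A to C open. Between oxamate and untreated libraries with the same letter, deviations from the group mean correlated across genes at 0.54 (A), 0.52 (B) and 0.35 (C). Each is above 0.1, so the letters were taken to mark possible pairs there. The fits whose fold changes and p-values are printed do not use this pairing unless the block is named. No pair of libraries in a group was within sampling noise. Alternatives were other scalings, filters and variance models, the letter as a block, the 6 libraries compared alone, Catsperg1 and Catsperg2 summed, and each library left out in turn.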

Additional observations from a re-analysis of the deposited data

How the results depend on the processing

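The calls of Catsper1, Catsper3, Catsper4 and Kcnu1 kept their direction and stayed under the threshold in both comparisons with octyl-L2HG in all alternatives run, each library left out in turn included; without library C of octyl-L2HG plus oxamate the log2 fold change of Catsper1 over oxamate was -2.38 and without library A -1.52. For oxamate over untreated 0 of the 10 genes were called in every alternative. In the comparisons with octyl-L2HG the letters were not taken to pair the libraries, since the correlations for A, B and C were 0.46, 0.52 and 0.01 over oxamate and 0.27, 0.46 and 0.04 over untreated. With the replicate block 6 of the 10 genes passed over untreated: Catsperb (0.35, limma-voom adjusted p = 0.025) and Catsperg1 (0.23, adjusted p = 0.047) joined the others. The share of all genes called with the block is not given for this comparison, so the count is not read as a result about the 10 genes. The block left the count over oxamate at 4.

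For oxamate over untreated the list counts moved. The replicate block gave 1 accessory gene, against 0, and 5 transport genes, against 2. Transport genes numbered 1 with no filter on low counts and 1 with upper quartile scaling, and 0 to 2 with a library left out. Signalling genes numbered 0 to 3 with a library left out, against 4. The cause was not tested. Over all genes, counts called ran between 338 (without untreated library C) and 4032 (block), against 1747, for oxamate over untreated, and between 2297 (without library A of octyl-L2HG plus oxamate) and 5205 (block), against 3550, for octyl-L2HG plus oxamate over oxamate. For octyl-L2HG plus oxamate over untreated they ran between 5192 and 9112, against 6988.

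Genes that had not passed changed sign in places. Single settings did so for Catsperd (0.014 with no filter) and Catsperg2 (-0.024 at 1 CPM) with octyl-L2HG plus oxamate over untreated, and for Catsperg1 (-0.003 with upper quartile scaling) with oxamate over untreated. With a library left out, log2 fold changes with octyl-L2HG plus oxamate over oxamate ran between -0.19 and 0.23 for Catsper2 and between -0.19 and 1 for Hvcn1. Over untreated they ran between -0.12 and 0.27 for Catsper2, -0.054 and 0.006 for Catsperd, and -0.04 and 0.14 for Catsperg2. For oxamate over untreated they ran between -0.031 and 0.19 for Catsper2, -0.029 and 0.19 for Catsper4, -0.022 and 0.21 for Catsperb, and -0.031 and 0.10 for Catsperg1. Depth limits Hvcn1 most among the 10 genes, at 6 to 33 counts a library.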
